A study of Mus musculus with 2 samples.

Results

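The cells described here are the 600 cells of the d8 population that scored highest for 7 macrophage genes, of 9627 d8 cells and 17720 cells in all. They were chosen by the mean, over Lyz2, Ctss, Ccl6, Gpnmb, Mpeg1, Fcgr3 and Tyrobp, of the natural logarithm of 1 plus the reads per 10000 reads of the cell. They made up 6.23% of d8 cells. Single-cell RNA-seq was carried out on mouse cells of 5 populations, in a study that asked how activation of the kinase AMPK returns primed pluripotent cells to the naive state. The d8 cells were primed epiblast stem cells of the Oct4GIP line, plated on mouse embryonic fibroblast (MEF) feeders with FGF2 and activin A and then treated with AICAR, an AMPK activator, and leukemia inhibitory factor (LIF) for 8 days. The d16 cells had the same treatment for 16 days, and d16+10p cells were d16 cells expanded for 10 passages in 2iL medium. Naive cells were embryonic stem cells whose reporter was Rex1-GFP, and the primed sample was of untreated Oct4GIP cells. The paper took Oct4-negative cells of the primed sample to be MEF feeders. The labels give 129/Ola as the strain of all populations, while the paper describes the naive and the reverted cells as separate lines that differ in genomic background. Each population was 1 tagged sample, tagged through antibodies to CD9 and CD63, and all were pooled in 1 cDNA library. The feeder cells carry no label of their own, so that members derived from the treated line and cells that came with the feeders cannot be told apart by the tag.

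Macrophages are phagocytes that engulf particles and dying cells and digest them in acidified lysosomes. They depend on the receptor CSF1R and the transcription factor PU.1, encoded by Spi1, and recognise their targets through Fc, complement and scavenger receptors, many of which signal through adaptors with an ITAM motif such as TYROBP. They also recycle iron and lipid from what they engulf, and they are abundant in embryonic as well as in adult tissues.

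All 600 members had reads of Lyz2, a lysozyme of myeloid cells (chromosome 10, 117277331 to 117282321, GRCm38). In reads per 10000, the 10th percentile, median and 90th percentile of the members were 132, 304 and 574 for Lyz2 and 19.1, 53.3 and 103 for Gpnmb, a lysosomal glycoprotein. The chemokine Ccl6 was less even, with 0, 5.87 and 53.4 at the same percentiles. These genes chose the members, so their levels are a description. The score fell without a gap, from 4.40 in the first cell to 3.14 at rank 300, 2.50 at rank 600, 2.19 at rank 700, 1.72 at rank 800 and 0.601 at rank 1200. The limit of 600 cells therefore lay inside the group of high-scoring cells and not at its edge. The last 20 members summed to 5208 CPM (reads of a gene per 1000000 reads) over a list of 24 macrophage markers that were not in the score. The first 20 cells outside the limit summed to 5229 CPM. Their scores were 2.50 to 2.54 and 2.45 to 2.50.

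In successive bands of 200 cells, the 24 markers were at 10116, 9567 and 7054 CPM within the members and at 4248, 1179 and 314 CPM after them. They were at 231 CPM in the 8427 cells beyond rank 1200. The cells outside the limit thus still held cells with high marker levels, and the median log2 ratio of these markers was 4.90 against all other d8 cells and 5.61 against the cells beyond rank 1200. All d8 cells outside the limit served as the comparison group, and those beyond rank 1200 as the background for shares of cells with a read.

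**Figure D1:**
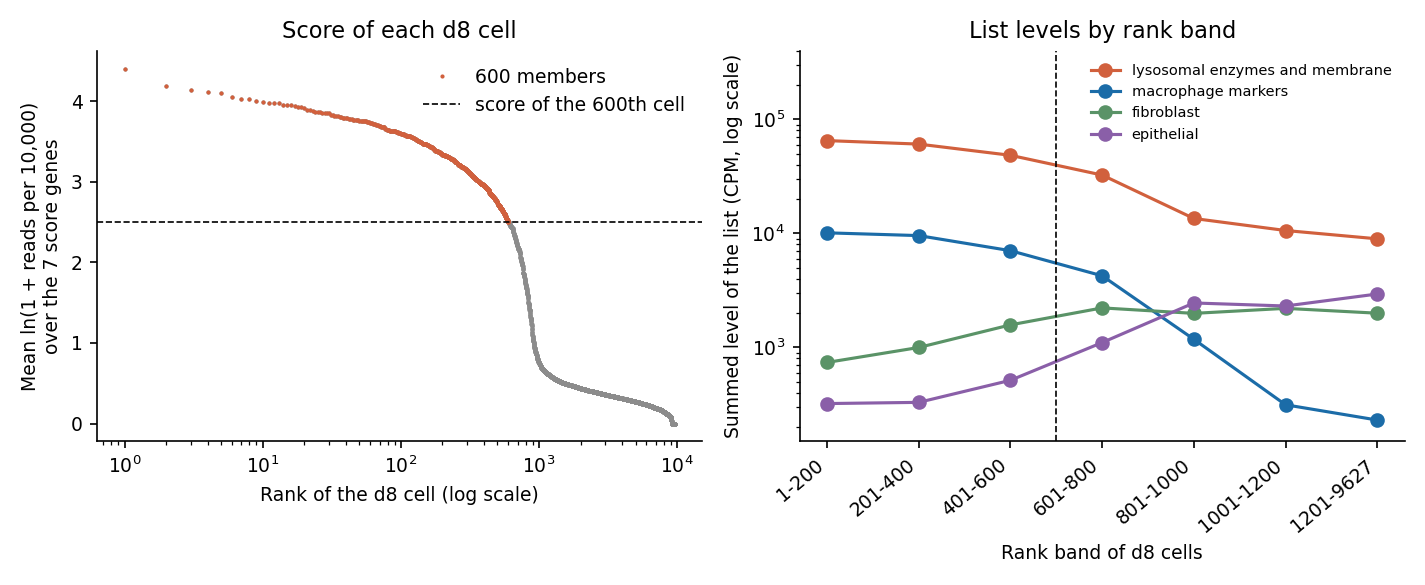
The left panel plots the score of every d8 cell against its rank (log scale), with the 600 members in orange and the score of the 600th cell as a dashed line. The right panel plots the summed CPM (log scale) of 4 gene lists in bands of ranked d8 cells. The macrophage marker list was at 10116 CPM in the first band and 231 CPM in the last, and the epithelial list at 322 and 2940.5 CPM.

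The members held 12017261 reads, with a median of 18140 reads and 3931 genes per cell, against 15269 reads and 4137 genes in the other 9027 d8 cells. Mitochondrial genes took 5.46% of the reads of members and 6.59% of those of other d8 cells. No cell barcode was shared between populations. Levels are CPM of reads summed over a group of cells, and ratios are log2 ratios of CPM plus 1. A gene was measured when it reached 50 CPM in either group and 100 reads in both together, and it is called higher or lower when its log2 ratio was at least 1 or at most -1. With 1 sample per population there were no replicates, no test was possible, and the 95% intervals cover counting error only. The counts are reads with no collapsing by molecular identifier described, and the intervals treat each read as independent. They may thus be too narrow even for counting error.

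Of 3970 measured genes, 411 (10.4%) were higher in members and 748 (18.8%) were lower. The cells compared were selected on macrophage genes, so that a split of this kind is built into the choice, and these shares serve as the background for the counts in gene lists. Of the 411 higher genes, 303 were under 50 CPM in other d8 cells and so were measured only through the members. This holds for every higher gene given below at under 50 CPM in other d8 cells. In the same way, a lower gene under 50 CPM in members was measured only through the other d8 cells. The median log2 ratio over all measured genes was -0.50. A few genes took a large part of the members' reads. The ferritin chains Fth1 and Ftl1 and the score gene Lyz2 together took 10.4% of the reads in members and 0.593% in other d8 cells, and Fth1 alone took 5.09%. With scaling by the trimmed mean of M values (TMM), log2 ratios moved up by as much as 0.47, and by less for genes of low level, and 645 genes were higher and 216 lower.

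Lyz1 headed the ranking at 1245 CPM in members and 16.1 CPM in other d8 cells, a log2 ratio of 6.19 (6.13 to 6.24). Lyz1 lies beside the score gene Lyz2 and is nearly identical to it, so that the split of reads between the pair is uncertain. Next came Itgam, the alpha chain of the complement receptor CR3, at 430.2 against 8.46 CPM, a log2 ratio of 5.51 (5.43 to 5.59). Among cells thinned to 5000 reads, 67.0% of members and 2.23% of d8 cells beyond rank 1200 had an Itgam read. Without thinning these shares were 82.5% and 6.23%, at median depths of 18140 and 15518 reads. The other 18 genes of the 20 with the largest ratios lay between 5.13 and 5.50. They were Clec4n, Cybb, Ccl9, Clec7a, C1qa, C1qc, Atp6v0d2, Msr1, Ms4a6d, C1qb, Clec4d, Il7r, Cd300c2, Trem2, C3ar1, Laptm5, Wfdc17 and Csf2rb.

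Of the 24 macrophage markers, 21 were measured and all 21 were higher, with log2 ratios of 3.27 to 5.51 and a median of 4.90. Of these 21, 19 were under 50 CPM in other d8 cells and so were measured only through the members. The growth factor receptor Csf1r stood at 132 CPM in members and 6.46 CPM in other d8 cells. Adgre1, which encodes F4/80, stood at 125 against 3.42 CPM, and Cd68, a lysosomal membrane glycoprotein of phagocytes, at 1091 against 56.1 CPM. Per cell, Cd68 had 3.51, 10.7 and 19.6 reads per 10000 at the 10th, 50th and 90th percentiles of members, and Csf1r 0, 0.728 and 3.61. A Cd68 read was present in 96.4% of thinned members and 16.4% of thinned d8 cells beyond rank 1200 (97.7% and 37.7% unthinned). The markers that were not measured were Fcgr1, at 41.2 against 0.852 CPM, Aif1, at 8.40 against 0.512 CPM, and the fractalkine receptor Cx3cr1, at 1.17 against 1.18 CPM. Cx3cr1 was thus no higher in members than in other d8 cells. CPM do not account for gene length, so levels are compared between groups of cells and not between genes.

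**Figure D2:**
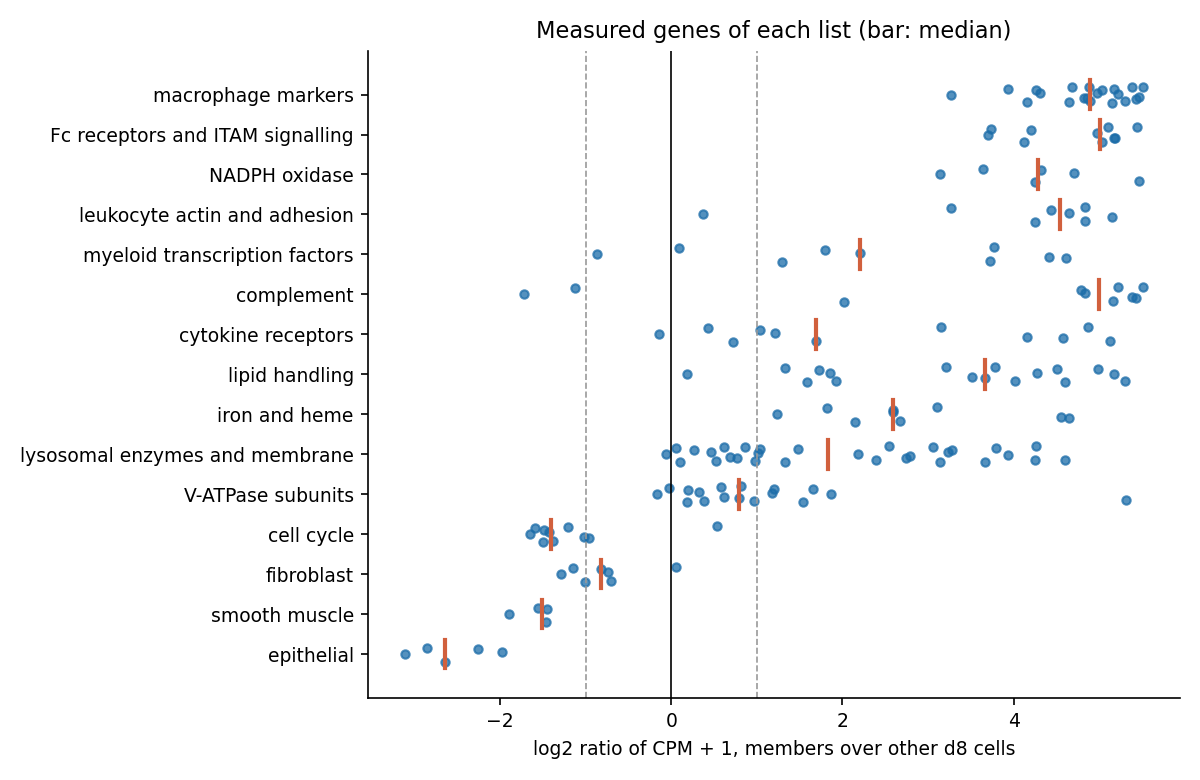
Each point is the log2 ratio of a measured gene, members over other d8 cells, in 15 gene lists, and the orange bar is the median of the list. Dashed lines mark log2 ratios of -1 and 1. The macrophage marker points lie between 3.27 and 5.51, and the epithelial points between -3.11 and -1.97.

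Fc receptors and their signalling partners were higher in 10 of 10 measured genes of a list of 20, with a median of 5.00. The 20 genes summed to 141 CPM in other d8 cells. The 10 were measured only through the members, so that their higher calls follow from the choice. The inhibitory receptor Fcgr2b was at 483 against 13.8 CPM, the adaptor Fcer1g at 331 against 9.55 CPM, and the kinase Syk had a log2 ratio of 4.12. The lectin receptor Clec7a, which binds fungal glucans, was at 282 against 5.48 CPM. All 6 genes of the phagocyte NADPH oxidase were higher, from Cyba (3.14) to Cybb (5.47), which encode the membrane pair of the enzyme. These 6 genes summed to 59.8 CPM in other d8 cells and were likewise measured only through the members. The cytosolic subunits Ncf1 and Ncf4 stood at 71.1 and 73.8 CPM in members and at 2.60 and 1.86 CPM in other d8 cells.

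Of 10 measured complement genes, 8 were higher and 2 lower. The 8 were measured only through the members, and the 2 only through the other d8 cells. The 3 chains of C1q, which start the classical pathway, lie in a cluster on chromosome 4 (136880129 to 136898803, GRCm38). C1qa, C1qb and C1qc were at 409, 331 and 499.5 CPM in members and at 8.50, 7.95 and 10.95 CPM in other d8 cells. The anaphylatoxin receptor C3ar1 was at 428 against 11.0 CPM, and C5ar1 at 36.2 against 0.810 CPM, below the measured level. The lower genes were Cd55 (19.8 against 67.3 CPM) and Cd59a (28.1 against 62.6 CPM), both of which protect cells from complement. C1s1, a protease of the C1 complex, was at 1.58 against 5.81 CPM, and C3 at 5.99 against 1.49 CPM. With TMM scaling Cd55 was lower and Cd59a was not.

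Among 20 myeloid transcription factors, 9 were measured, 7 were higher and none was lower, with a median of 2.21. Spi1 was at 102 against 3.20 CPM (log2 ratio 4.62, 4.49 to 4.74) and Irf8 at 89.1 against 3.23 CPM. Cebpa, a factor of myeloid differentiation, was at 65.4 against 3.86 CPM. Spi1, Irf8 and Cebpa were measured only through the members. A Spi1 read was seen in 35.0% of thinned members and 0.829% of thinned d8 cells beyond rank 1200 (65.8% and 2.46% unthinned). Runx1, which is needed for blood formation in the embryo, differed little, at 103 against 96.4 CPM. Runx1 was also the one measured gene of 9 blood progenitor genes, which summed to 174 CPM in members and 146 CPM in other d8 cells. Of the others, Kit was at 8.15 against 23.3 CPM and Gata2 at 0.499 against 2.59 CPM, while Lmo2 was at 23.8 against 5.28 CPM and Tal1 at 15.1 against 0.566 CPM.

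Lysosomal genes took a large share of the members' reads. A list of 32 lysosomal enzymes and membrane proteins summed to 58459 CPM in members and 9585 CPM in other d8 cells. Of its 30 measured genes 19 were higher, none was lower, and the median log2 ratio was 1.83. The proteases Ctsd, Ctsb and Ctsl stood at 19327, 8298 and 8931 CPM in members and at 1388, 999 and 1294 CPM in other d8 cells. The acid lipase Lipa was at 1815 against 73.8 CPM (4.60), and the cysteine protease legumain, Lgmn, at 1390 against 89.7 CPM (3.94). The other 11 measured genes were not called, and ranged from Gaa (-0.06) to Man2b1 (0.98), with the membrane proteins Lamp1 (0.77) and Lamp2 (0.27) among them. The tetraspanin Cd63, a target of the tag antibodies, was at 1618 CPM in members and 1502 CPM in other d8 cells. Of 17 subunits of the V-ATPase, the proton pump of the lysosome, 6 were higher and none was lower. The myeloid isoform Atp6v0d2 was at 1341 against 32.6 CPM (5.32), while its ubiquitous counterpart Atp6v0d1 was at 133 against 136 CPM (-0.03). With TMM scaling 25 of 31 lysosomal genes and 11 of 17 V-ATPase subunits were higher.

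Promoter windows from RefSeq (GRCm38.p6, the 250 bases before each start) were searched on both strands for GAGGAAGT, the letters that ETS factors such as PU.1 prefer, and for TCACGTGA, the letters bound by TFEB and TFE3, regulators of lysosomal genes. The first was present in 508 of 18100 genes with a window (2.81%) and the second in 217 (1.20%). These shares are over genes with a window at any level of expression. They are not a background of measured genes, of which 2982 of 3970 had a window. GAGGAAGT was found in 4 of 16 Fc receptor and ITAM genes with a window, namely Fcgr4, Pirb, Inpp5d and Vav1, and in 1 of 26 lysosomal genes, Ctsc. Of these, Inpp5d and Vav1 were below the measured level. TCACGTGA was found in none of those 16 and in 2 of the 26, Ctsa and Ctsd. Of the 7 score genes 6 had a window, and none of these held either match. Windows were held for only 311 of the 411 higher genes and 19 of the 24 macrophage markers, under the 80% taken as the minimum, so that a share over those sets is void. A match is a description of the letters and not a binding site. The stretches of 30 bases shown here come from higher genes with a match and are read along the gene's strand, with the match in capitals, on either strand.
C1qc, chr4:136893091-136893120, minus strand: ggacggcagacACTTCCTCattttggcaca
Fcgr4, chr1:171018891-171018920, plus strand: taaggctatttACTTCCTCtcttctagtca
Pf4, chr5:90772405-90772434, plus strand: tgtcattgcttctgcagagcACTTCCTCat
Mmp12, chr9:7344298-7344327, plus strand: ccacttcacccACTTCCTCttccaagactc
Ctsd, chr7:142387908-142387937, minus strand: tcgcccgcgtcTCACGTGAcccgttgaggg
Ctsa, chr2:164833743-164833772, plus strand: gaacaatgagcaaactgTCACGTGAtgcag

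Beside these matches, C1qc, Fcgr4, Pf4 and Mmp12 were at 499.5, 57.8, 83.0 and 2612 CPM in members and at 10.95, 2.20, 1.82 and 154 CPM in other d8 cells. Ctsd and Ctsa had log2 ratios of 3.80 and 2.18. Of the factors named, Spi1 was higher, while Tfeb and Tfe3 were below the measured level, at 8.65 and 35.5 CPM in members and 4.94 and 43.9 CPM in other d8 cells.

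All 9 measured genes of iron and heme handling were higher, with a median of 2.59. Fth1 and Ftl1, which store iron, were at 50874 and 19954 CPM in members and at 2170 and 3305 CPM in other d8 cells. Hmox1, which opens the heme ring, was at 456 against 102 CPM, the iron exporter Slc40a1 at 99.9 against 10.7 CPM, and the phagosomal metal transporter Slc11a1 at 161 against 5.44 CPM. The hemoglobin receptor Cd163 was at 0.416 CPM in members.

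Of 17 measured genes of lipid handling 16 were higher, with a median of 3.66. The fatty acid binding protein Fabp5 was at 4234 against 185 CPM, the scavenger receptor Cd36 at 1150 against 35.4 CPM, and the cholesterol exporter Abca1 at 278 against 19.3 CPM. Apolipoprotein E (Apoe) was uneven among members, with 0, 1.17 and 68.1 reads per 10000 at the 10th, 50th and 90th percentiles. Its sums were 1651 CPM in members and 498 CPM in other d8 cells. The oxidised lipoprotein receptor Olr1 was at 16.6 against 49.9 CPM, just below the measured level.

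Among receptors of the colony-stimulating factors, Csf1r (4.16), Csf2rb (5.13) and Csf2rb2 (4.87) were higher in members, and Csf2ra (33.0 against 2.02 CPM) and Csf3r (3.58 against 4.32 CPM) were not measured. Csf1, a ligand of CSF1R, was lower, at 67.9 CPM in members and 194 CPM in other d8 cells. The ligands Il34, Csf2 and Csf3 were not measured. Without the members of subgroups 3 and 4, described below, Csf1 was at 41.9 CPM (-2.19) and Hbegf at 24.1 CPM (-2.29). Of 7 measured cytokines and growth factors, 3 were higher, namely the growth factor Igf1 (660.1 against 22.0 CPM), the interleukin 1 antagonist Il1rn (438 against 16.6 CPM) and Gas6, a bridge between dying cells and their receptors (136 against 27.0 CPM). Csf1 and Hbegf (38.4 against 122 CPM) were lower. Of 11 measured cytokine receptors 8 were higher and none was lower, among them the tumour necrosis factor receptor Tnfrsf1b (458 against 18.2 CPM) and Il10rb (128 against 13.5 CPM).

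Chemokines were split, with 4 of 7 measured genes higher and 2 lower. Ccl9 was at 555 against 11.6 CPM, Pf4 at 83.0 against 1.82 CPM, Cxcl16 at 181 against 8.15 CPM and Ccl3 at 58.5 against 3.43 CPM. Ccl2 and Ccl7, which attract monocytes through CCR2, were at 139 and 78.6 CPM in members and at 294 and 178 CPM in other d8 cells. With TMM scaling neither was called lower (-0.61 and -0.70). Without the members of subgroups 3 and 4 they were at 50.3 and 25.6 CPM, with log2 ratios of -2.53 and -2.75. All 3 measured chemokine receptors were higher, Ccr1 (4.75), Ccrl2 (4.34) and Cxcr4 (4.07). Their list of 7 summed to 53.4 CPM in other d8 cells, and these 3 were measured only through the members.

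Among 12 measured genes of engulfment 6 were higher and 1 lower. Mertk, a receptor for dying cells bridged by GAS6, was at 143 against 6.23 CPM, and the related receptor Axl at 38.7 against 98.0 CPM. With TMM scaling Axl was not called lower (-0.85), and without the members of subgroups 3 and 4 it was at 17.5 CPM (-2.42). The scavenger receptor Msr1 was at 372 against 8.45 CPM, and Sirpa, which receives the CD47 signal, at 374 against 27.7 CPM. The bridging protein Mfge8 (-0.29) and the integrin chain Itgav (-0.23) were not called. Of 8 measured genes of leukocyte adhesion and actin 7 were higher, among them the integrin chain Itgb2 (388 against 12.6 CPM) and the actin bundler Lcp1 (302 against 12.9 CPM). Their list of 18 summed to 208 CPM in other d8 cells. These 7 were measured only through the members, so that their higher calls follow from the choice.

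A list of 18 inflammatory genes summed to 328 CPM in members and 346 CPM in other d8 cells. Of these genes 2 were measured, of which Cd38 was higher (103 against 5.13 CPM) and Ptgs2 lower (84.9 against 277.5 CPM, and 34.0 CPM without the members of subgroups 3 and 4). Among those not measured, Il1b was at 9.99 CPM in members (log2 ratio 3.17), Marco at 18.1 against 0.298 CPM, Tlr2 at 28.5 against 3.51 CPM, Tnf at 4.58 against 0.673 CPM, Il6 at 6.99 against 13.4 CPM, Cxcl10 at 4.08 against 23.6 CPM and Nos2 at 0.0832 against 0.244 CPM. Among 18 genes of resident or alternatively activated macrophages, which summed to 136 CPM in other d8 cells, 6 were measured, and these 6 were higher. They included Mrc1, a mannose receptor (87.9 against 2.02 CPM), and Arg1 (79.4 against 10.1 CPM). Chil3 and Retnla were at 0.0832 CPM each, and Lyve1 and Timd4 at 1.17 and 0 CPM.

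Most markers of other blood cell types were below the measured level. None of 11 genes of major histocompatibility complex class II and costimulation was measured, with Cd74 at 0.666 CPM, H2-Ab1 at 1.08 CPM and the regulator Ciita at 0.0832 CPM in members. The monocyte genes Ly6c2 and Ccr2 were at 1.17 CPM each, and of 3 measured genes of that list Fn1 (-1.85) and Vcan (-1.44) were lower and S100a4 (0.14) was not called. The microglial genes P2ry12 and Tmem119 were not measured, at 1.33 and 7.16 CPM. None of the neutrophil, mast cell, endothelial, lymphoid or erythroid genes was measured. The neutrophil gene S100a9 was at 0.166 CPM, Ly6g at 0 CPM and S100a8 at 41.8 CPM, against 8.92 CPM in other d8 cells. The 10 lymphoid genes summed to 3.99 CPM in members, and the 9 erythroid and megakaryocyte genes found in the table to 3.91 CPM. The dendritic cell genes Flt3 and Zbtb46 were at 0.499 and 0.582 CPM, while Itgax, which macrophages share, was at 57.2 CPM. Of 11 osteoclast genes 3 were measured and 2 were higher, Acp5 (97.4 against 6.76 CPM) and Atp6v0d2 (1341 against 32.6 CPM), while Ctsk (80.1 against 57.5 CPM) was not called. Of the others Tnfrsf11a was at 24.9 against 2.38 CPM and Nfatc1 at 18.8 against 7.66 CPM, and the calcitonin receptor Calcr at 0.166 against 0.298 CPM.

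In summed reads, genes of the cell cycle were lower, with 8 of 10 measured genes called lower, none higher, and a median of -1.40. Top2a was at 48.3 CPM in members and 137 CPM in other d8 cells, and Birc5 at 19.1 against 62.1 CPM. Top2a and Birc5 were thus measured only through the other d8 cells. Pcna went the other way (316 against 218 CPM, 0.53). With TMM scaling 4 of 8 measured genes were lower and 1, Pcna, was at the limit of a higher call. Per cell, on the scale used for Lyz2, the median of the cell cycle list was 5.56 in members and 6.91 in other d8 cells. The 90th percentiles were 12.6 and 25.9. The typical cells of both groups thus differed less than the cells with the highest levels of this list.

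The genes with the lowest ratios were Krt18 (-3.11), Fgfbp1 (-2.86), Krt8 (-2.85), Cldn6 (-2.65), Perp (-2.64), Sfn (-2.56), Bex1 (-2.55), Spint1 (-2.42), Lefty1 (-2.36) and Prtg (-2.36). Krt18, Krt8 and Cldn6 are in the epithelial list, and Krt18 was at 154 CPM in members and 1334 CPM in other d8 cells. All 5 measured epithelial genes were lower, with or without TMM scaling. Of 7 measured fibroblast genes 3 were lower (Postn, Thy1 and Lox) and none was higher, and with TMM scaling none was lower. Col3a1 stood at 146 CPM in members and 141 CPM in other d8 cells, but at 468 CPM in the 61 members of subgroup 4 and at 80.1 CPM (-0.81) without the members of subgroups 3 and 4. The 4 measured smooth muscle genes were lower, among them Acta2 (220.3 against 609 CPM, and 114 CPM without the members of subgroups 3 and 4), and 2 of them with TMM scaling. Of 4 measured pluripotency genes Pou5f1 (28.5 against 58.8 CPM), Sox2 (54.2 against 122 CPM) and Tdgf1 (44.2 against 141 CPM) were lower, of which Tdgf1 remained so with TMM scaling. Both measured neural genes, Nes (-1.93) and Stmn2 (-1.47), were lower.

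The members were not uniform. A clustering of the 600 cells gave 4 subgroups of 264, 158, 117 and 61 cells, which are numbered and not named. Their leading genes follow from the clustering and are a description. Subgroup 1 was the shallowest, with a median of 14707 reads and 3336 genes. It was led by Hvcn1, a proton channel (150.2 CPM, and 55.8 CPM in the other members), by Mmp12, the macrophage elastase (4377 against 1682 CPM), and by the collagenase Mmp8 (348 against 151 CPM). Itgam and Clec7a were at 617 and 413 CPM in it.

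Subgroup 2 had a median of 18091 reads and 3994 genes. It was led by Cd5l (76.7 CPM, and 12.5 CPM in the other members), the folate receptor Folr2 (54.7 CPM), lipoprotein lipase Lpl (834 against 234 CPM) and Slc40a1 (193 against 65.7 CPM). The complement list summed to 3905 CPM in it, against 2570, 2069 and 2152 CPM in subgroups 1, 3 and 4, and C1qc was at 886 CPM. Its macrophage marker sum was 12446 CPM, against 9176, 6496 and 6122 CPM in subgroups 1, 3 and 4. Mmp8 was at 37.1 CPM in subgroup 2 and between 222 and 348 CPM in the other subgroups.

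Subgroups 3 and 4 carried genes of other cell types beside the macrophage genes, in subgroup 4 mainly in part of its cells. Subgroup 3 had a median of 26892 reads and 5027 genes, and was led by Mmp10 (614 CPM, and 51.6 CPM in the other members), Tm4sf1, Crabp1, Aebp1, Mmp3, Postn (569.8 CPM, log2 ratio 3.23), Igfbp7 and Lox (509 against 54.8 CPM). The 9 genes of the fibroblast list summed to 2427 CPM in subgroup 3, against 402, 392 and 1679 CPM in subgroups 1, 2 and 4 and 2004 CPM in other d8 cells. Subgroup 4 had a median of 22748 reads and 4758 genes, and its leading genes included Dppa5a (362 against 68.8 CPM), A2m, Mest and Lefty1 (212 against 44.2 CPM). The pluripotency list summed to 840 CPM in subgroup 4 and to between 203 and 234 CPM in the others, and the epithelial list to 834 CPM and between 295 and 344 CPM. The 7 score genes summed to 57330, 52259, 40113 and 33255 CPM in subgroups 1 to 4. Subgroups 3 and 4 thus had more reads and genes per cell and lower macrophage sums than subgroups 1 and 2, and higher sums of the fibroblast list, while the epithelial and pluripotency sums were higher in subgroup 4 alone. The part of doublets in this was not tested.

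Without subgroups 3 and 4, the remaining 422 members had 475 higher and 1047 lower genes of 4025. The macrophage markers were then 22 of 22 higher, and 6 of 7 fibroblast genes were lower, in place of 3. Subgroups 3 and 4 had the highest sums of the fibroblast list, so that the change in this list follows from leaving them out. Postn, Lox and Thy1 were at 51.7, 50.7 and 22.9 CPM, against 192, 173 and 77.4 CPM in all members. The cell cycle list had 9 of 10 genes lower. The counts of higher genes in the Fc receptor, NADPH oxidase, complement, lipid and iron lists were 11 of 11, 6 of 6, 8 of 10, 16 of 17 and 9 of 9. A gene newly measured here passed the minimum of 50 CPM only through the 422 members. Among the macrophage markers this was Fcgr1, at 50.1 CPM in them, so that its higher call follows from the choice.

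**Figure D3:**
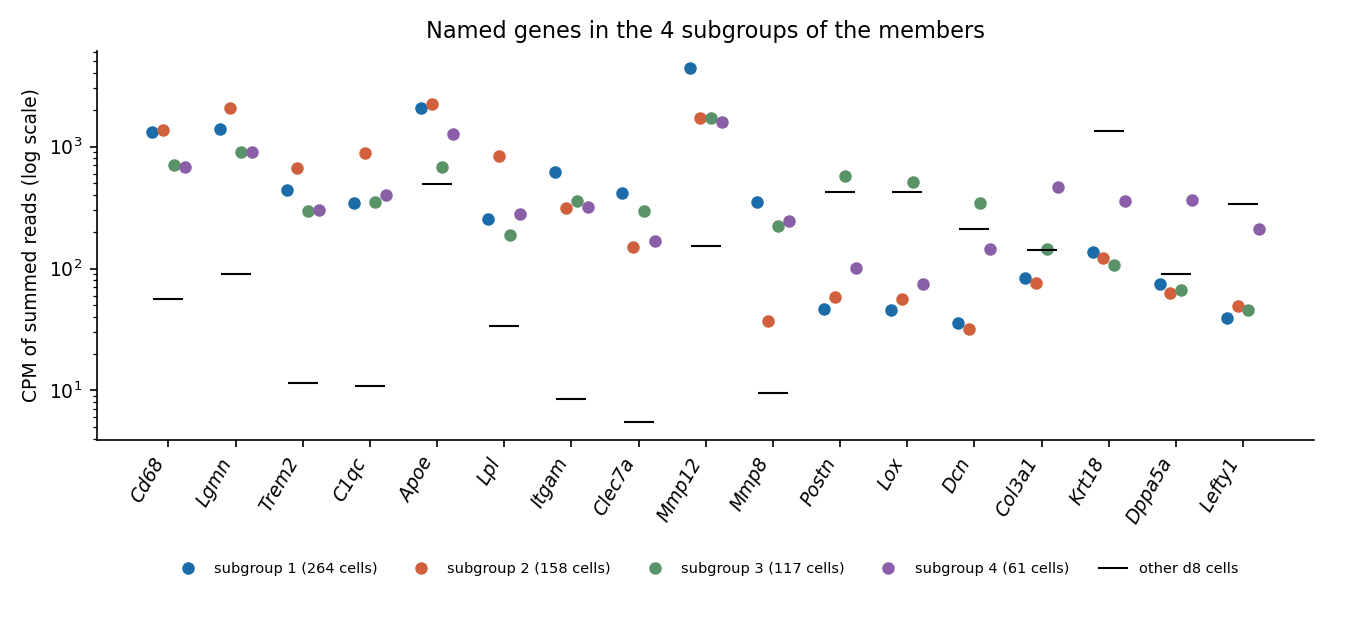
Points are CPM (log scale) of 17 genes in the 4 subgroups of members, and black bars are the level in the other d8 cells. C1qc and Lpl were highest in subgroup 2 (886 and 834 CPM), Mmp12 in subgroup 1 (4377 CPM), Postn and Lox in subgroup 3 (569.8 and 509 CPM) and Dppa5a in subgroup 4 (362 CPM).

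Cells at or above the d8 limit were found under every tag. The pool was mixed from 9000 cells each of d8 and d16, 1000 of d16+10p and 500 each of primed and naive, while the table holds 9627, 4315, 1151, 1826 and 801 cells under these tags. The cells at the limit were 9 of 801 naive cells (1.12%, exact binomial interval 0.515 to 2.12%), 31 of 1826 primed cells (1.70%, 1.16 to 2.40%), 23 of 4315 d16 cells (0.533%, 0.338 to 0.799%) and 2 of 1151 d16+10p cells (0.174%, 0.0211 to 0.626%). The d8 share of 6.23% was set by the choice of 600 cells, and the limit is a d8 score, so that d8 was not compared with the others. The intervals treat cells as independent and do not stand for replicate samples. Cells differed in depth, with medians of 15474 reads for d8, 10185 for d16, 21551 for d16+10p, 11914 for primed and 19551 for naive. With cells thinned to 5000 reads and the limit again at the 600th d8 cell, the share was 6.76% for d8, 0.728% for d16, 0.370% for d16+10p, 1.35% for primed and 1.09% for naive. These intervals cover counting error only, and with 1 sample each the share of a population and that of its culture cannot be told apart.

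The 23 d16 cells had a median of 23404 reads, against 10185 in all d16 cells. Of 4064 genes measured in d16, 347 (8.54%) were higher in them than in the other d16 cells. These cells were chosen by the same score as the d8 members, so that higher levels of macrophage genes in them follow from the choice and are a description. The macrophage marker list summed to 6704 CPM in them and 244 CPM in the other d16 cells, and 18 of its 19 measured genes were measured only through them. C1qc was at 471 against 7.46 CPM, Cybb at 518 against 7.03 CPM and Mmp12 at 1690 against 64.2 CPM, which lay near or below the d8 members' 499.5, 499.5 and 2612 CPM. Fth1 and Ctsd were at 35684 and 12213 CPM. The marker sums of cells at the limit were 7058 CPM in primed, 4399 CPM in naive and 3651 CPM in d16+10p cells, and 227 to 287 CPM in the remaining cells of these tags.

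**Figure D4:**
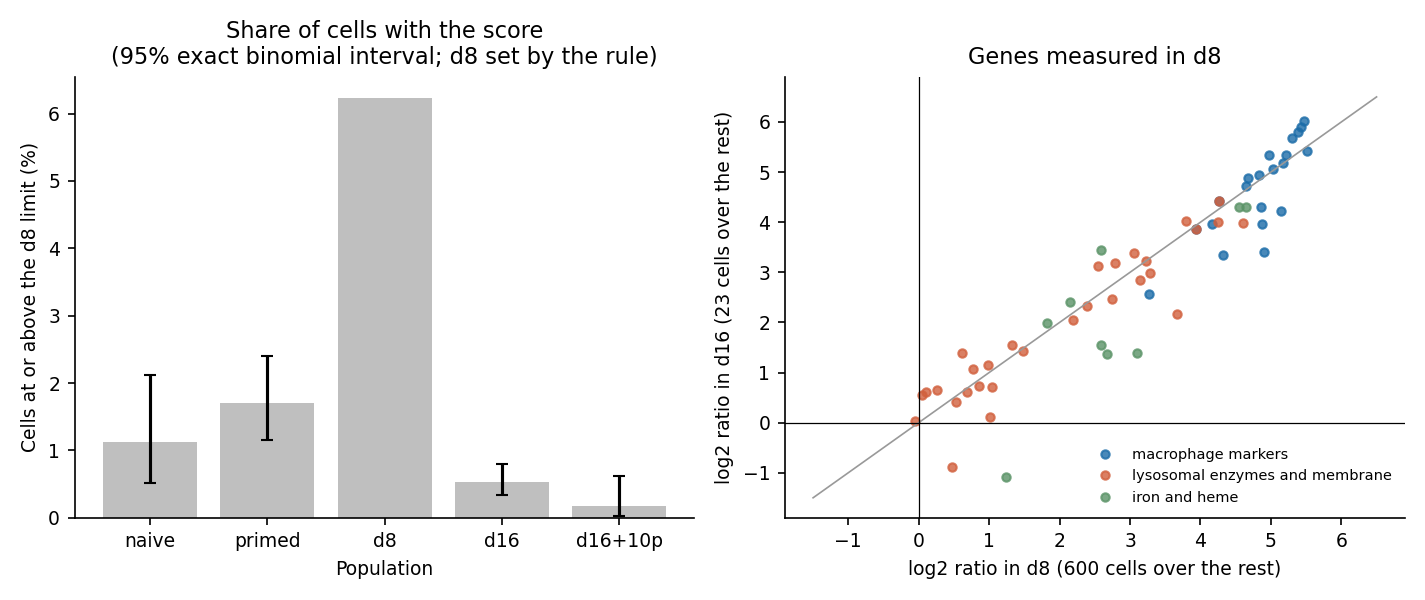
The left panel gives the percentage of cells of each population at or above the d8 limit, with exact 95% binomial intervals except for d8, whose share the rule set. The right panel sets the log2 ratio of list genes in d16 (23 cells over the rest) against that in d8 (600 cells over the rest), with a line of equality. The macrophage markers lie above 2 on both axes, and Tfrc lies at 1.24 in d8 and -1.08 in d16.

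Sex-linked genes were not used by the score. The Oct4GIP and Rex1-GFP lines are XX, and the sex of the feeder cells is not given in the sources used here. The Y-linked gene Ddx3y was at 34.4 CPM in members, 31.7 CPM in other d8 cells and 5.53 CPM in d16+10p cells. Among cells below the limit it was at 58.7 CPM in naive, 6.72 CPM in primed and 7.21 CPM in d16 cells. In subgroups 1 to 4 it was at 31.8, 26.0, 54.8 and 17.2 CPM. Eif2s3y was at 12.2 against 7.54 CPM in members and other d8 cells, and Uty at 5.16 against 5.52 CPM. Among thinned cells, 16.9% of members (13.9 to 20.3%) had a read of Ddx3y, Eif2s3y or Uty. The share was 10.9% of other d8 cells (10.2 to 11.6%) and 5.55% of d16+10p cells. Xist, which is expressed from the inactive X chromosome, was at 116, 232 and 102 CPM in members, other d8 cells and d16+10p cells. An Xist read was present in 43.4%, 52.9% and 33.6% of these cells after thinning. The origin of these reads was not tested.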

How the data were processed

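The authors trimmed reads with cutadapt 2.10, mapped them with Bowtie2 2.3.4.1 to Ensembl GRCm38 cDNA and ncRNA and deposited raw counts of reads for each gene symbol in each cell, with no collapsing by molecular identifier described. They removed barcodes below the knee-plot inflection and, cells that the tags marked as doublets. No doublet caller was run here, and doublets within a tag may remain. Of 33963 genes, score genes and mitochondrially encoded genes did not enter the ranking. The score, sums, CPM, log2 ratios with a pseudocount of 1 CPM and exact 95% intervals were computed in Python 3.11.15 (scipy 1.17.1), and subgroups with scanpy 1.11.5 (2000 variable genes, 15 components, 30 neighbours, resolution 0.5). TMM factors came from edgeR 4.0.16. For shares of cells with a read, cells were thinned to 5000 reads, which left out 43 members. Ratios and intervals were tested on simulated data with independent (Poisson) reads. Gene positions are from GENCODE M21. Genes are named when among the 20 largest or 10 smallest ratios, in 1 of 36 gene lists, or among the 8 largest ratios of a subgroup, and some genes that the rule names are not reported here. The members and the lists were chosen with earlier results of these data known, and no test was made.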

Additional observations from a re-analysis of the deposited data

Results flagged for a closer look

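Tfrc, the transferrin receptor that takes up iron, differed in direction between d8 and d16. Its log2 ratio was 1.24 in the 600 d8 members over other d8 cells (41.9 CPM in the latter) and -1.08 in the 23 d16 cells at the limit over other d16 cells (77.4 against 165 CPM, 49 reads in those 23 cells). The difference was not tested, since each population was 1 sample.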

How the results depend on the processing

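The counts of 411 higher and 748 lower genes became 645 and 216 with TMM scaling, 619 and 1551 with a minimum of 20 CPM, and 1106 and 3053 with no minimum. With the other alternatives, among them 400 or 800 members, thinned cells, a mean of CPM per cell and the cells above the 95th percentile of reads left out, both counts stayed within 1.5 times. The median log2 ratio of the macrophage markers, 4.90, was 4.07 with a pseudocount of 10 CPM, 5.31 with TMM scaling, 4.47 with 400 members, 5.28 with 800 members, 5.61 with the 600 cells that follow the members left out and 5.12 without subgroups 3 and 4, an alternative chosen after seeing the data. The share of d16 cells at the limit, 0.533%, was 0.232% with the limit at the 400th d8 cell and 0.950% at the 800th. Of 270 values of the 30 genes with the largest or smallest ratios under these alternatives, 192 left the counting interval of the main value and 0 changed sign. That interval treats reads as independent and may be too narrow. With any score gene left out, 573 to 587 of the 600 members stayed, and with the score taken from thinned cells 552 did. No paired analysis was possible because each population was 1 sample. Depth was 18140 reads in the median member, so that a gene with few reads could be missed in a cell.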
